A study of Mus musculus with 30 samples.

Results

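The genes described here are those of the interferon response and of antigen presentation that the array annotates under the symbols H2-, Irf, Ifi, Isg, Gbp, Oas, Mx1, Mx2, Tap1, Tap2, Psmb8, Psmb9, Psmb10, B2m or Stat2, with 1 further symbol. They were chosen by symbol alone, and 95 of the 21689 genes on the array met that choice. By role they were 27 MHC class I and class I-like genes, 9 MHC class II genes, 3 other genes of the MHC region, 5 genes of peptide transport and the immunoproteasome, 12 IRF, IRF-binding and STAT genes, 21 interferon-induced proteins of the Ifi, Ifit, Ifitm and Isg groups, 12 OAS family genes, 4 guanylate-binding proteins and 2 Mx GTPases. The study asked which expression changes of stressed fibroblasts need the kinase p38α. Total RNA of immortalised wild type mouse embryonic fibroblasts (MEFs) and of immortalised MEFs lacking p38α (p38α-/- MEFs) was measured on 30 2-colour arrays, 2 for each of 15 groups.

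Wild type MEFs were stressed for 45 min with 25 ng/ml anisomycin, which inhibits protein synthesis, for 45 min with 100 ng/ml of the inflammatory cytokine TNFα, or for 45 min, 2 h or 8 h with an osmotic stress of 100 mM NaCl. Each of these treatments was also given after the p38 inhibitor SB203580, and 1 further wild type group received SB203580 alone, which makes 11 wild type groups. SB203580 is taken here as 10 μM for 30 min before the stress, as the treatment protocol states, although the sample titles give another dose unit and 2 h. The 4 groups of p38α-/- MEFs were 1 without treatment and 1 each under anisomycin, under TNFα and under NaCl (2 h), at the same doses and times. Sample RNA was labelled with Cy5 and hybridised against the Cy3-labelled RNA of 1 pool of 2 untreated wild type samples, the same on each array, so no untreated wild type array exists, a dye bias stays in every ratio, and the spread of the pool is in no test. Each genotype is represented by immortalised cells with no second line named, so genotype and cell line cannot be told apart. Values are log2 ratios of sample to pool, and 0 is the level of the pool. Called means an adjusted p under 0.05 from limma, the linear model fitted across all genes.

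Interferons bind receptors that activate STAT and IRF transcription factors, which switch on antiviral genes such as those of the OAS, Mx and guanylate-binding families. The same pathway raises the machinery that displays peptides to T cells: the immunoproteasome subunits that cut proteins, the Tap transporter that moves peptides into the endoplasmic reticulum, and the class I heavy chain with its partner β2-microglobulin. TNFα reaches some of these genes by another route, through the transcription factor NF-kB, and fibroblasts normally carry class I molecules but little class II.

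Upstream sequence is shown for the 5 genes whose values carry most of the results below: the factor Irf1, the class I pair H2-K1 and B2m, the GTPase gene Gbp2 and the immunoproteasome gene Psmb8. Each is the 150 bases before a RefSeq transcription start in GRCm38.p6, written in the direction of the gene. Capitals mark matches to the ISRE core (GAAA, any 2 bases and GAAA again), the GAS element (TTCNNNGAA) or the NF-kB consensus on either strand. The Irf1 sequence is chr11:53769864-53770013 on the plus strand and holds a GAS match and an NF-kB match, while the 150 bases before the other RefSeq start of Irf1 hold none of the 3 motifs.
Irf1: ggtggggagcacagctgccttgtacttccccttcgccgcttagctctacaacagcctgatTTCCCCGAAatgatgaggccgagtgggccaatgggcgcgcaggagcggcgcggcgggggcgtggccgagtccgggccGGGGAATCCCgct
The H2-K1 sequence is chr17:34000348-34000497 on the minus strand and holds overlapping NF-kB matches.
H2-K1: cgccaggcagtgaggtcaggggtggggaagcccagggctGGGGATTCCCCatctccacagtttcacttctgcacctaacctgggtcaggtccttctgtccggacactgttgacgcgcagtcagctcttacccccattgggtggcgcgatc
The B2m sequence is chr2:122147537-122147686 on the plus strand and holds an ISRE core close to an NF-kB match.
B2m: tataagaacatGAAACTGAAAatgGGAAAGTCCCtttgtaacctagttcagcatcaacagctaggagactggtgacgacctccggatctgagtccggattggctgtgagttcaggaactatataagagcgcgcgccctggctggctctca
The Gbp2 sequence is chr3:142620513-142620662 on the plus strand and holds an ISRE core on the opposite strand.
Gbp2: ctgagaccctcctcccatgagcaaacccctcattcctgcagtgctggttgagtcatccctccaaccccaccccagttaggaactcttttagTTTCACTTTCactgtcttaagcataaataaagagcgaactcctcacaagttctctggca
The Psmb8 sequence is chr17:34198045-34198194 on the plus strand and holds a GAS match.
Psmb8: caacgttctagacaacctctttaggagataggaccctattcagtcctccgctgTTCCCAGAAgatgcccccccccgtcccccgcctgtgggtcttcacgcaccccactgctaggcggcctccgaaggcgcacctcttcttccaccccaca

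In windows of 300 bases around the start, which the reference held for 74 of the 95 genes, 21 genes had an ISRE core (28.4%, against 3.99% of all 27025 genes), 15 had a GAS match (20.3%, against 9.55%) and 21 had an NF-kB match (28.4%, against 9.55%). Per start rather than per gene, 3.44%, 8.3% and 8.46% of 32851 windows held the 3 motifs. A match is a stretch of letters and says nothing of a factor bound there, and a window without one says only that these letters are not in it.

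Across the arrays, 6.78% to 44.8% of spots were marked as outliers by the scanner software (median 16.0%) and were left out, so the number of genes measured differs between arrays. With these spots kept, 27 members in place of 9 were called with TNFα, and counts against the pool rose for each other wild type treatment below. The share of all genes called with these spots kept is not given, so this rise is not read as particular to the members. The probes well above background made up 81.1% to 96.8% in the sample channel and 92.6% to 98.9% in the pool channel. The p38α probe (Mapk14) read from 0.03 to 1.31 on the wild type arrays, with outlier spots kept, and from -2.24 to -0.94 on the p38α-/- arrays. Of the fibroblast marker probes 14 of 16 were well above background in both channels on all 30 arrays, but so were 10 of 13 macrophage and 2 of 3 dendritic cell marker probes, after 2 rounds of RNA amplification, so this flag marks no cell type here. All first wild type arrays were scanned in 1 batch, all second wild type and all first p38α-/- arrays in another, and the remaining p38α-/- arrays in 2 others.

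A call against the pool also holds any offset that a gene shows on all arrays. Of the members called below, B2m, Irf2, Tap1, H2-M10.4 and H2-K1 (28 arrays) lay above the pool on each array that measured them, and H2-Aa, H2-Ke2 (19 arrays) and Oas1c (12 arrays) below it on each. Ifi35 lay below on 11 of 12 arrays, H2-Q7 on 25 of 26 and H2-T22 on 22 of 23, and H2-T10 lay above on 27 of 30. Among wild type arrays, Ifitm3 lay above the pool on all 19 that measured it (0.30 to 0.94). H2-D4 lay below it on all 15 wild type arrays that measured it (-1.51 to -0.21). For these genes a rise or fall is against the pool alone, and does not set 1 treatment apart from the others unless a comparison between treatments is given.

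The strongest change among these genes was that of Irf1, the factor that drives class I and immunoproteasome genes, with TNFα, and it came from only 1 of its 2 probes. Probe A_51_P146103 read 4.50 and 3.80 in wild type MEFs with TNFα, 4.34 and 4.02 with SB203580 and TNFα, and 4.10 and 4.35 in p38α-/- MEFs with TNFα, the second wild type spot being one marked as an outlier. On the other 24 arrays it lay between -0.34 and 1.21 with a median of 0.29, so the 6 TNFα arrays, with a median of 4.22, stood apart from all others. Probe A_52_P175685 lay between -1.04 and -0.16 on all 30 arrays and was marked as an outlier on 17 of them. In wild type MEFs, TNFα was set against anisomycin and NaCl for 45 min, over arrays with and without SB203580. The first probe was 3.76 higher with TNFα (adjusted p = 6.85e-10, limma on single probes). The gene value, a mean over whichever probes passed the outlier filter on an array, was 3.34 higher (SE 0.48, adjusted p = 0.00156, limma). With TNFα alone it rests on the first probe only, and the second probe enters it in other groups, so this size compares unlike probe sets. In p38α-/- MEFs the first probe was 3.72 higher with TNFα than without treatment (adjusted p = 1.82e-07, limma on single probes). The gene value, which mixes the probes in the same way, gave 2.83 (95% interval 1.41 to 4.25) and was not called (adjusted p = 0.426, limma).

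**Figure D1:**
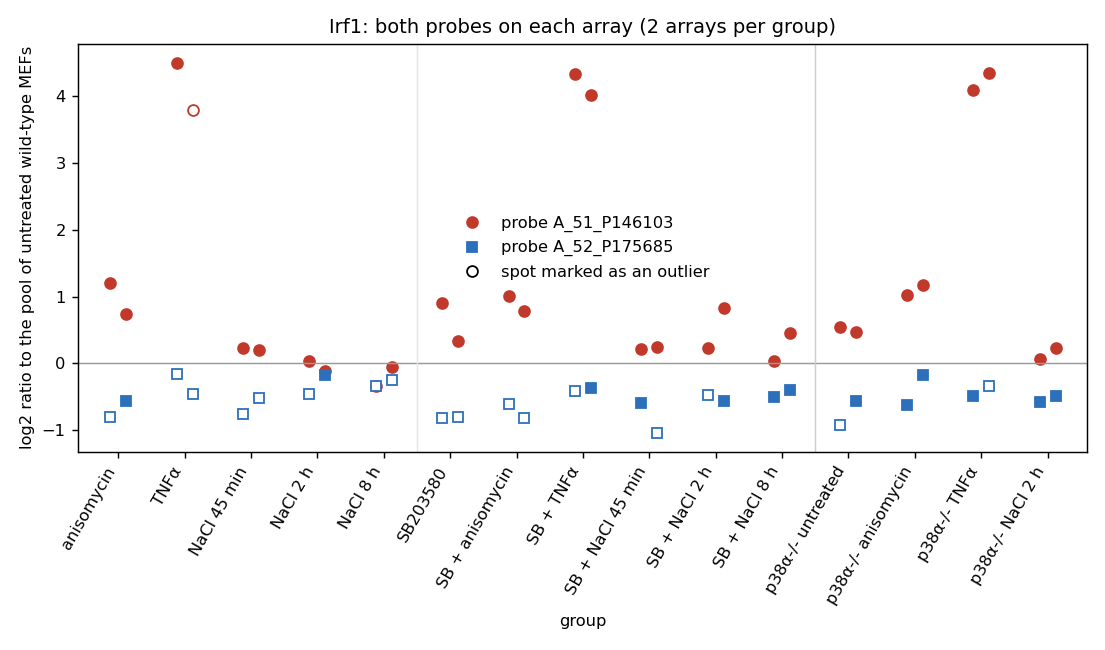
Log2 ratio of sample to pool for both Irf1 probes (y axis) in each of the 15 groups (x axis), with 1 point per array and spots marked as outliers drawn as open points. The first probe sits between 3.80 and 4.50 on the 6 TNFα arrays and between -0.34 and 1.21 on the other 24, and the second sits below 0 on all 30.

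The first Irf1 probe also rose with anisomycin, at 1.21 and 0.73 (mean 0.97, adjusted p = 0.000931, limma on single probes), and read 1.01 and 0.79 when SB203580 was given first. It rose with SB203580 alone by 0.62 (adjusted p = 0.00784) and in untreated p38α-/- MEFs by 0.51 (adjusted p = 0.0383, both limma on single probes). With NaCl for 45 min, 2 h and 8 h it was at 0.22, -0.04 and -0.19, none of them called.

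TNFα in wild type MEFs raised 8 and lowered 1 of the 60 members that could be tested, where 5.25% of all genes tested were called higher and 5.72% lower. The 8 were 4 of 15 class I genes, 2 of 16 interferon-induced proteins, 1 of 4 guanylate-binding proteins and 1 of 5 IRF genes, and the 1 that fell was 1 of 7 class II genes. The median over the members was -0.01 and over all genes 0.00. At an unadjusted p under 0.05 there were 15 members. Without the first array 2 members were called and without the second 3.

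H2-K1, a classical class I heavy chain, read 2.09 and 1.41 with TNFα in wild type MEFs, and 1.57 and 1.10 when SB203580 was given first. On the other 16 wild type arrays that measured it, it lay at or below 1.37, so only the first array with SB203580 alone overlapped with those 4. Its mean with TNFα was 1.75 (SE 0.20, adjusted p = 5.52e-05, limma).

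B2m, the light chain of every class I molecule, read 1.08 and 1.10 with TNFα, a mean of 1.09 (SE 0.17, adjusted p = 0.000663, limma). Irf2, a factor that binds the same DNA element as Irf1, read 0.69 and 0.73, a mean of 0.71 (SE 0.15, adjusted p = 0.0051). Gbp2, a GTPase that acts on intracellular pathogens, read 0.95 and 0.83 (mean 0.89, SE 0.22, adjusted p = 0.014), and Ifitm3, which blocks virus entry, read 0.88 and 0.81 (mean 0.85, SE 0.16, adjusted p = 0.00502). Smaller rises were those of H2-Q1 (0.33, adjusted p = 0.0317), Ifit1 (0.32, adjusted p = 0.0446) and H2-M10.4 (0.20, adjusted p = 0.0475). The class II gene H2-Aa read -0.85 and -1.11 (mean -0.98, SE 0.21, adjusted p = 0.00671).

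Tap1 read 1.26 and 0.65 with TNFα, a mean of 0.96 (95% interval 0.29 to 1.62) that was not called (adjusted p = 0.0583, limma). Stat2, which transmits the type I interferon signal, was not called either, at -0.19 and -0.20. Irf3 (-0.29 and 0.08), Irf7 (0.15 and -0.25) and Psmb8 (-0.05 and -0.03) lay near the pool. Psmb9 and Psmb10 passed the outlier filter on only 4 and 8 of the 30 arrays, and Tap2 on 1 of the 2 TNFα arrays.

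Since every wild type group shares the pool, TNFα was also set directly against the other 45 min stresses of wild type MEFs, over arrays with and without SB203580, a comparison added after the data were seen. Of 73 members tested, 1 was higher (Irf1) and none was lower, where 0.23% of all genes were higher and 0.0673% lower, and 7 members had an unadjusted p under 0.05. Without the first wild type TNFα array Irf1 could not be tested and no member was called, and without the second 2 members were called. H2-K1 was 0.87 higher with TNFα (95% interval 0.48 to 1.25) and missed the threshold (adjusted p = 0.0649, limma). With the replicate number as a block 2 members were called, Irf1 and H2-K1, the latter at 0.93 (adjusted p = 0.012). B2m (0.33, adjusted p = 0.991), Irf2 (-0.09) and H2-Aa (-0.01) gave no call, and neither did Gbp2 (0.31, 95% interval -0.08 to 0.71). TNFα against anisomycin alone called no member of 55 by limma (0.183% of all genes were called, and 2 members had an unadjusted p under 0.05), with H2-K1 1.07 higher (95% interval 0.48 to 1.65, adjusted p = 0.317).

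Of 58 pathway genes outside the chosen symbols, 40 could be tested with TNFα, and 7 rose and 2 fell. Cxcl10, an interferon- and NF-kB-induced chemokine, read 6.94 and 6.34 in wild type MEFs, 6.37 and 5.44 with SB203580 and 6.29 and 5.95 in p38α-/- MEFs. On all other arrays it lay between 0.20 and 2.71, below each of these 6. Ifnar2, a chain of the type I interferon receptor, read 1.21 and 1.01 (mean 1.11, adjusted p = 5.49e-05, limma), and both Cxcl10 (by 5.04, adjusted p = 9.56e-08) and Ifnar2 (by 0.62, adjusted p = 0.0173) were higher than with the other 45 min stresses. The other pathway genes that rose were Gch1 (2.14), Ptpn2 (0.81), Tapbp (0.55), Icam1 (0.51) and Tlr3 (0.45), and those that fell were Bst2 (-1.34) and Jak2 (-0.34), which lay below the pool on 17 of 17 and 27 of 28 arrays. Gch1 read 1.86 and 2.43 with TNFα, but also 0.43 and 2.63 with anisomycin and 0.10 and 2.43 with NaCl for 8 h, so these treatments overlapped. Ifnb1, the gene of interferon β, read -0.10 and -0.02.

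Anisomycin raised 4 and lowered 3 of 64 members tested (5.72% of all genes higher and 6.28% lower), with medians of -0.06 over the members and 0.00 over all genes. Without the first array no member was called and without the second 2 were. Tap1, a subunit of the peptide transporter, read 1.58 and 0.69 (mean 1.14, SE 0.31, adjusted p = 0.0254, limma). H2-K1 read 0.90 and 0.46 (mean 0.68, adjusted p = 0.0333), below both of its TNFα arrays. Irf2 (0.76, adjusted p = 0.00297) and B2m (0.65, adjusted p = 0.0201) were the other members that rose. Ifi35, an interferon-induced protein, read -0.93 and -0.81 (mean -0.87, adjusted p = 0.0106), and the class I gene H2-D4 read -0.67 and -0.89 (mean -0.78, adjusted p = 0.0173), with H2-Aa also lower (-0.77, adjusted p = 0.0249). Among the 45 pathway genes tested, Cxcl10 (2.25), Socs3 (0.97), Ptpn2 (0.80) and Ifng (0.35) rose and Bst2 (-1.49), Samhd1 (-0.69), Trex1 (-0.65) and Jak2 (-0.55) fell against the pool, Ifng being above it and Bst2 and Trex1 below it on every array that measured them. Socs3 encodes a feedback inhibitor of cytokine receptors.

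The osmotic time course was read from NaCl at 45 min, 2 h and 8 h. At 45 min 3 members rose and 2 fell of 57 tested (4.69% of all genes higher and 5.19% lower), at 2 h 2 rose and 4 fell of 80 (5.24% and 4.69%), and at 8 h 3 rose and 5 fell of 66 (11% and 11.2%). The medians over the members were 0.01, -0.04 and -0.04, and those over all genes 0.01, 0.00 and 0.00. With the replicate number as a block, 10 members in place of 5 were called at 45 min and 11 in place of 6 at 2 h. The share of all genes called with this block is not given. Leaving out the first array gave 2 members at 45 min, 1 at 2 h and 7 at 8 h, and leaving out the second gave 0, 4 and 2.

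At 45 min the rises were those of B2m (0.91), Irf2 (0.73) and the class I-like gene H2-M10.6, at 0.61 and 0.59 (adjusted p = 0.043, limma). H2-Aa (-0.98) and H2-Q7 (-0.61, adjusted p = 0.0238) fell. At 2 h B2m (1.22, adjusted p = 0.000199) and Irf2 (0.67, adjusted p = 0.00734) rose again. Irf3, which turns on interferon genes after viral sensing, read -0.72 and -0.32 (mean -0.52, adjusted p = 0.0329), and -0.82 and -0.79 with SB203580. Of its 2 probes A_52_P609770 was well above background in Cy5 on only 1 of these arrays and on neither with SB203580, and the other, A_51_P485499, read -0.36 and -0.41 and was not called on its own (adjusted p = 0.0669, limma on single probes). Oas1c, of the family that makes the second messenger for RNase L, read -1.20 on the first array at 2 h (mean -1.10, adjusted p = 0.00591), and -1.31 and -1.45 with SB203580, on the few arrays that measured it. H2-Ke2 (-0.57) and H2-T22 (-0.36) were the other members called below the pool at 2 h, where they lay on nearly all arrays.

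At 8 h the class I-like gene H2-T10 read -0.47 and -1.53 (SE of the mean 0.19, adjusted p = 0.000963, limma), whereas at 2 h it had read 0.66 and 0.31. With SB203580 it read -0.13 and 0.08 at 8 h. The difference between 8 h with and without SB203580 was 0.98 (95% interval 0.41 to 1.55) and was not called (adjusted p = 0.319).

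At 8 h 2 of 8 class II genes tested were called, both lower. H2-Ea read -0.75 and -0.42 (mean -0.58, adjusted p = 0.00565, limma) and H2-DMb1, a subunit of the class II peptide editor, -0.96 and -0.46 (mean -0.71, adjusted p = 0.0315). The H2-DMb1 probe was well above background in Cy5 on 1 of these 2 arrays. H2-Q7 (-0.47, adjusted p = 0.0442) also fell. Oasl2 read -1.19 and -1.11 (adjusted p = 0.0055), but its probe was not well above background in Cy5 on either array, so the data give only that it was at least 1.09-fold lower than the pool. Irf2 (0.86, adjusted p = 0.000332), Ifitm3 (0.65, adjusted p = 0.00935) and B2m (0.60, adjusted p = 0.016) rose.

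Between 2 h and 8 h of NaCl alone, 1 of 64 members was called, H2-T10, lower by 1.49 at 8 h (SE 0.27, adjusted p = 0.00201, limma), where 7.81% of all genes were called, and with the replicate number as a block 4 members were called. Those 4 were H2-T10, Gbp2 (-0.70), H2-Ea (-0.63) and Oasl2, for which no size is given because its probe was not well above background at 8 h. Over arrays with and without SB203580, a comparison added after the data were seen, 3 members were higher and 4 lower at 8 h among 81 tested (5.88% of all genes higher and 8.09% lower). The 4 were H2-T10 (-1.03, adjusted p = 0.00115), Gbp2 (-0.89, adjusted p = 0.00913), H2-DMb1 (-0.85, adjusted p = 0.0158) and H2-Ea (-0.72, adjusted p = 0.00166). The 3 were Oas1c (0.96, adjusted p = 0.0106), H2-Bf (0.58, adjusted p = 0.0466) and Irf3 (0.49, adjusted p = 0.0343), the last in part through its dim probe. H2-Bf is the complement gene now named Cfb. Without the second array of SB203580 with NaCl for 2 h 3 members were called, and without the first array of SB203580 with NaCl for 8 h 4 were.

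Gbp2 read -0.63 and -0.32 at 8 h, and -0.88 and -0.47 with SB203580, all below 0. At 2 h it read 0.28 and 0.17, and 0.11 and 0.71 with SB203580, so the 2 times did not overlap. Over arrays with and without SB203580, the pathway genes outside the symbols moved with 2 rises and 7 falls among 52 tested from 2 h to 8 h. In the same comparison 5.88% of all genes were higher and 8.09% lower. Trim21 (1.02) and Herc5 (0.40) rose. With NaCl alone Trim21 read -0.29 and 0.19 at 2 h and 0.06 and 0.65 at 8 h. With SB203580 it read -0.78 and -0.17 at 2 h and 1.12 and 1.18 at 8 h. Ptpn2 (-1.13), Nmi (-0.72), Socs3 (-0.67), Ddx58 (-0.57), Ifngr1 (-0.49), Tlr3 (-0.47) and Tyk2 (-0.40) fell. Ddx58 encodes the RNA sensor RIG-I, and Ifngr1 and Tyk2 a receptor chain and a kinase of interferon signalling.

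**Figure D2:**
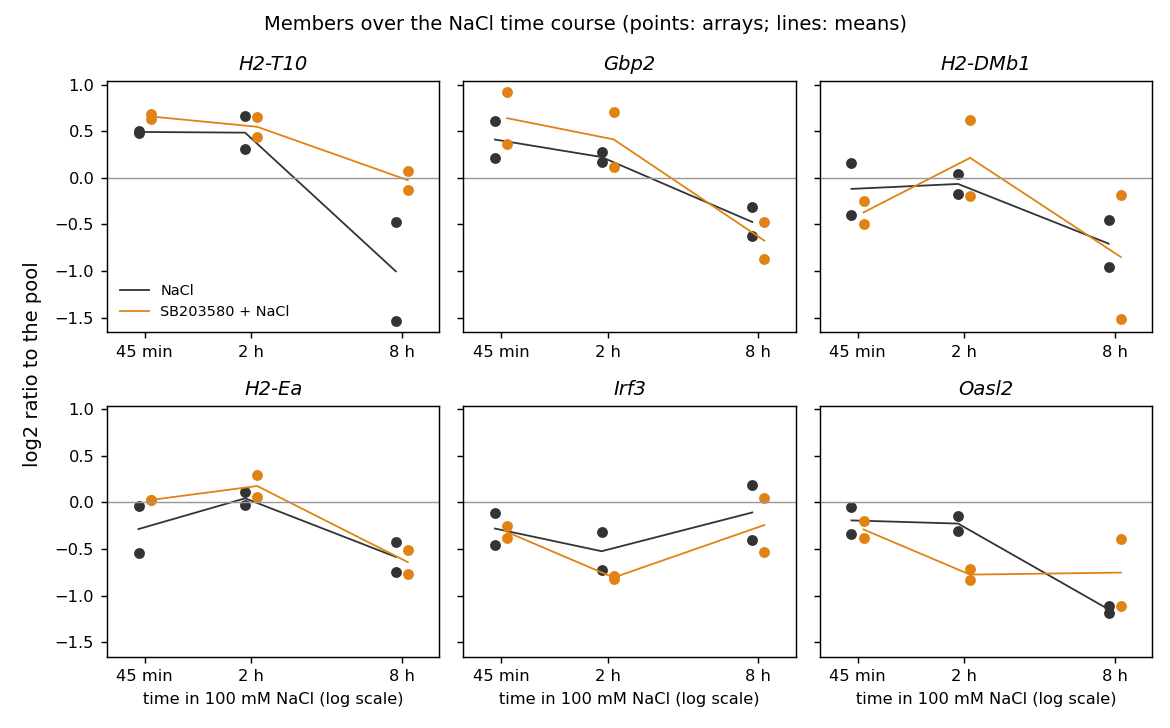
Log2 ratio of sample to pool (y axis) against time in NaCl on a log scale (x axis: 45 min, 2 h and 8 h) for members that differed between 2 h and 8 h, with 1 point per array, lines through group means, and arrays with and without SB203580 in different colours. H2-T10 falls from 0.66 and 0.31 at 2 h to -0.47 and -1.53 at 8 h without SB203580, and Gbp2 is below 0 at 8 h on all 4 arrays.

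SB203580 alone raised 9 and lowered 3 of 60 members tested, where 14.7% of all genes were higher and 11.8% lower. Without the first array 2 members were called and without the second 20. Stat2 was among the 9. It read 0.88 and 0.83 (mean 0.86, SE 0.12, adjusted p = 0.000158, limma). On the other 28 arrays it lay between -0.28 and 0.51, below both. H2-K1 read 1.37 and 0.74 (mean 1.06, adjusted p = 0.00143) and H2-T10 1.07 and 0.40 (mean 0.73, adjusted p = 0.00996). Gbp2 (0.70), Ifi27 (0.35), B2m (1.26), Irf2 (0.69) and H2-M10.4 (0.22) also rose. Tap2, the second subunit of the peptide transporter, read -0.95 and -0.45 (mean -0.70, adjusted p = 0.0145), and H2-Aa (-0.93) and H2-T24 (-0.36) also fell. Of 36 pathway genes 8 rose, among them Trim21 at 1.81 and 1.29 and Canx, a chaperone of class I folding, by 0.68, and none fell.

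Averaged over the 5 stresses, adding SB203580 changed none of 72 members by limma, where 0.0626% of all genes were called, and 2 members had an unadjusted p under 0.05. Those 2 were Stat2, 0.22 higher with SB203580 (95% interval 0.07 to 0.38, adjusted p = 0.913), and H2-T10, 0.30 higher (95% interval 0.04 to 0.55). For H2-K1 the difference was -0.01 (95% interval -0.30 to 0.27), for Gbp2 0.01 (95% interval -0.28 to 0.30) and for Tap1 -0.10 (95% interval -0.52 to 0.32). Average changes over the 5 stresses larger than 0.30 in size therefore lay outside these intervals for H2-K1 and Gbp2. For Tap1 average changes of up to 0.52 did not. Differences of opposite direction cancel in this average. The H2-K1 mean was 1.75 with TNFα and 1.34 with SB203580 and TNFα. With NaCl for 45 min it read 0.58 and with SB203580 and NaCl 0.85, on 1 array each. Taken 1 stress at a time, no member was called by limma for any of the 5, where 0.0204% of all genes were called for anisomycin, 0.206% for NaCl at 8 h and 0% for the others, and 0 to 3 members had an unadjusted p under 0.05.

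Untreated p38α-/- MEFs differed from the wild type pool in 16 of 70 members, 12 higher and 4 lower, where 8.02% of all genes were higher and 6.96% lower. Without the first array 3 members were called and without the second 13. Of 19 class I genes 7 were higher and none lower. H2-K1 read 2.15 and 1.78 (mean 1.97, SE 0.20, adjusted p = 1.51e-05, limma), and only the first wild type array with TNFα reached into this range from the wild type side. H2-Bl read 1.49 and 0.78 (mean 1.13, adjusted p = 0.000848), through probe A_52_P560113 at 2.83 and 1.48, which was well above background in Cy3 on 1 of the 2 arrays, while its probe A_51_P247114 read 0.15 and 0.08. H2-M3, which presents formylated peptides, read 0.96 and 1.11 (mean 1.04, adjusted p = 0.00321), and its second array rests on 1 of 2 probes. The other class I rises were B2m (0.72), H2-T10 (0.67), H2-Q1 (0.42) and H2-Q10 (1.79), the last only through 1 of its probes and at -0.11 with spots marked as outliers kept (adjusted p = 0.429, limma). The B2m rise is against the pool alone, since its median was 0.69 on the p38α-/- arrays and 1.02 on the wild type arrays. The H2-T10 rise is likewise against the pool alone, with medians of 0.44 and 0.39.

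Psmb8, an immunoproteasome subunit, read 0.79 and 0.96 in untreated p38α-/- MEFs (mean 0.87, adjusted p = 0.00397, limma). Ifi47, an interferon-induced GTPase, read 0.84 and 0.86 (mean 0.85, adjusted p = 0.00259). H2-DMb1 (0.84), Irf2 (0.84) and Ifi202b (0.37) were higher too. Among the members that fell were H2-Ke2 (-0.70), H2-Aa (-0.68) and Ifi27 (-0.65).

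Over the 3 stresses given to both genotypes (anisomycin, TNFα and NaCl for 2 h), p38α-/- MEFs differed from wild type MEFs under the same stress in 11 of 75 members, 9 higher and 2 lower, where 3.47% of all genes were higher and 4.19% lower. The 9 were 4 of 22 class I genes, 1 of 7 class II genes, 1 of 3 genes of peptide transport and the immunoproteasome, 1 of 7 IRF genes, 1 of 17 interferon-induced proteins and 1 of 4 guanylate-binding proteins. The median over the members was 0.07 and over all genes 0.01.

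H2-K1 lay between 1.73 and 2.55 on the 8 p38α-/- arrays (median 2.03) and between 0.14 and 2.09 on 20 wild type arrays (median 0.69), and overlapped only through the first wild type array with TNFα. Under the 3 shared stresses it was 1.05 higher in p38α-/- MEFs (SE 0.16, adjusted p = 0.000673, limma). Psmb8 lay between 0.57 and 1.74 on the p38α-/- arrays (median 0.71) and between -0.13 and 0.46 on 22 wild type arrays (median 0.06), with no overlap, and the difference was 0.85 (SE 0.15, adjusted p = 0.00165). Ifi47 lay between 0.39 and 1.54 (median 0.56) against -0.54 to 0.20 (median -0.08), again with no overlap, a difference of 0.78 (SE 0.13, adjusted p = 0.00165). Each Psmb8 probe taken singly did overlap. Probe A_51_P345366 read from 0.53 on the p38α-/- arrays and up to 0.78 on the wild type arrays, and A_51_P345367 from 0.35 and up to 0.48.

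H2-DMb1 lay between 0.61 and 1.18 on the p38α-/- arrays and between -1.51 and 0.62 on the wild type arrays, which touched at 1 wild type array, and differed by 1.10 (SE 0.19, adjusted p = 0.00115, limma). The other genes higher in p38α-/- MEFs were H2-D4 (0.96, adjusted p = 0.00381), H2-Bl (0.69, adjusted p = 0.0106), Irf3 (0.55, adjusted p = 0.00951), H2-Q1 (0.50, adjusted p = 0.000541) and Gbp5 (0.42, adjusted p = 0.023). For Irf3 the dim probe A_52_P609770 differed by 0.82 and A_51_P485499 by 0.27, the latter not called (adjusted p = 0.134, limma on single probes). For H2-Bl probe A_52_P560113 differed by 1.41 and A_51_P247114 by 0.33 (adjusted p = 0.0523). Ifi27, a small interferon-induced membrane protein, was lower: it lay between -1.04 and -0.41 on the p38α-/- arrays and between -0.25 and 0.51 on the wild type arrays, a difference of -0.72 (SE 0.10, adjusted p = 0.000286). With outlier spots kept, its probe A_51_P358233 did not overlap either (-1.67 to -0.57 against -0.35 to 0.72). Ifi27 probe A_52_P90363 did overlap (-0.68 to -0.17 against -0.23 to 0.30), and A_52_P90364 had medians of -0.25 and -0.28. Ifitm3 lay between -0.39 and 0.47 on 6 p38α-/- arrays and between 0.30 and 0.94 on 19 wild type arrays, with some overlap, a difference of -0.58 (SE 0.15, adjusted p = 0.0328).

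**Figure D3:**
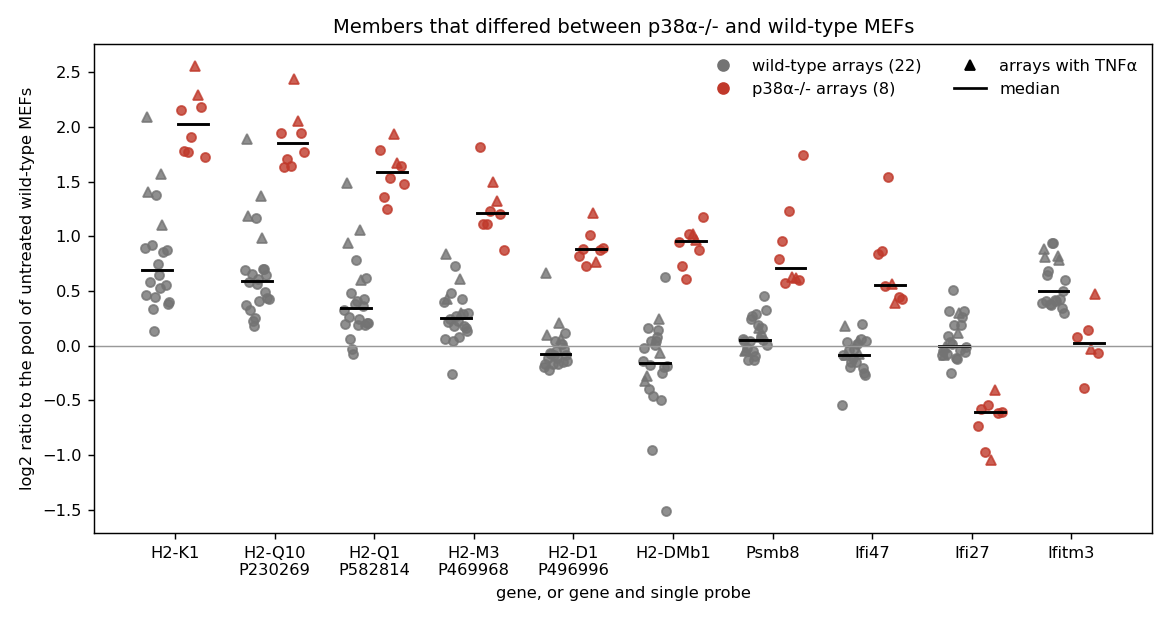
Log2 ratio of sample to pool (y axis) on each p38α-/- and wild type array for members that differed between the genotypes (x axis), with 1 point per array, triangles for TNFα and a line at the median; H2-Q10, H2-Q1, H2-M3 and H2-D1 are shown by 1 probe each. Ifi47, and Psmb8 and Ifi27 as means over their probes, do not overlap between the genotypes, and H2-K1 overlaps only through 1 wild type array with TNFα.

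Second wild type and first p38α-/- arrays were scanned in the same batch, which gave 1 pair for each shared stress. In these pairs H2-K1 was 1.31 higher in p38α-/- MEFs with anisomycin, 1.15 higher with TNFα and 1.84 higher with NaCl, and Psmb8 0.52, 0.67 and 0.36 higher. Ifi27 was lower by a mean of -0.87 over 3 pairs. H2-DMb1 (mean 0.92), H2-D4 (0.99), Ifi47 (0.64), H2-Bl (0.61), Irf3 (0.48), H2-Q1 (0.39), Gbp5 (0.34) and Ifitm3 (-0.64) kept the direction of the full comparison in their means. B2m, not called in the full comparison, differed by -0.52, -0.70 and -0.50 in the same pairs, and Gbp2, also not called, by a mean of -0.67. With the scan batch as a fixed block, 10 of the 11 stayed called, with H2-K1 at 1.30, Psmb8 at 0.64 and Ifi27 at -0.91, and Gbp5 was no longer called (0.32, adjusted p = 0.0931). Of 6 fibroblast markers tested in this comparison 2 were called, Col1a1 (0.50) and Thy1 (0.58), both higher in p38α-/- MEFs, while Vim gave -0.21 and was not called. Col1a2 could not be tested, and with outlier spots kept it lay between -0.67 and -0.33 on the p38α-/- arrays and between -0.30 and 0.45 on the wild type arrays, with no overlap. Of 2 endothelial markers tested Kdr was lower (-1.59, adjusted p = 0.000636), and Pecam1, not tested, had a median of -0.14 on the p38α-/- arrays and -0.38 on the wild type arrays. None of the 6 macrophage, 1 dendritic and 2 epithelial markers tested was called by limma, and 2 of the macrophage markers had an unadjusted p under 0.05. For the 13 macrophage marker probes the Cy5 and the Cy3 signals were each summed over the probes, so bright probes weigh most. The log2 ratio of these sums lay between -0.20 and 0.15 on the wild type arrays and between -0.01 and 0.28 on the p38α-/- arrays. The part of these marker differences in the genotype difference was not tested.

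Taken 1 stress at a time, Ifi47 (1.36), H2-D4 (1.23) and Irf3 (0.90) were higher in p38α-/- MEFs with anisomycin and H2-K1 (1.32) and H2-Q1 (0.63) with NaCl for 2 h. These were 3 of 60 and 2 of 71 members tested, where 1.27% and 0.697% of all genes were called, and with TNFα none of 58 was called by limma, where 0.414% of all genes were, and 8 members had an unadjusted p under 0.05. Single probes of the class I genes differed from each other. H2-Q10 probe A_51_P230269 lay between 1.63 and 2.44 on the p38α-/- arrays and between 0.18 and 1.89 on the wild type arrays (1.15 higher, adjusted p = 0.000266, limma on single probes), whereas its probe A_52_P428354 lay between -2.09 and -0.98 on all arrays. H2-Q1 probe A_52_P582814 lay between 1.25 and 1.94 against -0.07 to 1.48 (1.02 higher, adjusted p = 0.000149, limma on single probes). With outlier spots kept, H2-Q1 probe A_51_P425048 had a median of 0.10 on the p38α-/- arrays and -0.39 on the wild type arrays. H2-Q1 probe A_52_P231729 went the other way, with medians of -0.21 and 0.32. H2-M3 probe A_51_P469968 lay between 0.88 and 1.82 against -0.26 to 0.84 (0.88 higher, adjusted p = 0.000793, limma on single probes). The other H2-M3 probe, A_52_P490263, showed no rise, with medians of -0.28 on the p38α-/- arrays and -0.22 on the wild type arrays. H2-D1 probe A_51_P496996, with spots marked as outliers kept because most of them were, lay between 0.73 and 1.22 against -0.22 to 0.67. Class I genes are near-identical in long stretches, so a probe may read several of them, and which gene these probes read is uncertain.

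Of the pathway genes outside the symbols, Igtp, an interferon-γ-induced GTPase, lay between 0.88 and 1.92 on the 8 p38α-/- arrays and between -0.08 and 0.85 on the wild type arrays, with no overlap. It differed by 0.99 under the shared stresses (SE 0.18, adjusted p = 0.00255, limma). Lgals3bp (0.37) and Mr1 (0.31) were also higher and Tlr3 (-0.45) and Ifnar2 (-0.44) lower, 5 of 48 tested.

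The response to TNFα within p38α-/- MEFs was read against their own untreated arrays. None of 65 members was called by limma on genes, where 0.078% of all genes were called, and 5 members had an unadjusted p under 0.05. Without the first p38α-/- array with TNFα 1 member was called. H2-K1 read 2.55 and 2.29 with TNFα against 2.15 and 1.78 without, a rise of 0.45 that was not called (95% interval -0.13 to 1.04). Gbp2 read 0.08 and 0.69 with TNFα and 0.00 and 0.45 without (difference 0.16, 95% interval -0.49 to 0.81). Cxcl10 was 4.85 higher (adjusted p = 0.000282), beside the Irf1 probe given above.

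The difference of the TNFα response between the genotypes, that is the rise over untreated p38α-/- MEFs less the rise over the wild type pool, was called for none of 56 members by limma, where 0.45% of all genes were called, and 8 members had an unadjusted p under 0.05. For H2-K1 it was -1.29 (95% interval -2.01 to -0.58, adjusted p = 0.101). With the replicate number as a block 6 members were called: H2-K1 (-1.29, adjusted p = 0.0388), B2m (-1.07, adjusted p = 0.0388), H2-Q10, Tap1 (-1.54), Irf2 (-0.78) and H2-Aa (1.35). The H2-Q10 value compares different probes, since the untreated p38α-/- arrays rest on A_51_P230269 alone and the second with TNFα on A_52_P112219 alone, so no size is given. Of the others, H2-K1, B2m, Irf2, Tap1 and H2-Aa all lay on 1 side of the pool in every group, and that offset is part of the wild type term but not of the p38α-/- term. The same differences for anisomycin and for NaCl at 2 h, both added after the data were seen, called none of 60 and none of 66 members by limma, where 0.542% and 0% of all genes were called, with 11 and 8 members at an unadjusted p under 0.05.

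That offset was a feature of several members. Of the 45 members measured on all 30 arrays, 4 lay above the pool on every one (8.89%, against 3.02% of 10458 genes) and 1 below (2.22%, against 2.04%). B2m lay between 0.19 and 1.52 (median 0.91), Irf2 between 0.02 and 1.27 (median 0.69), Tap1 between 0.07 and 1.58 (median 0.66), and H2-M10.4 between 0.03 and 0.33 (median 0.18). H2-Aa lay between -1.29 and -0.04 (median -0.65), through 1 of its 2 probes. H2-K1, H2-Ke2 and Oas1c, not measured on all arrays, also stayed on 1 side, with H2-K1 between 0.14 and 2.55, H2-Ke2 between -0.96 and -0.38 and Oas1c between -1.45 and -0.02. Of the pathway genes named above, Ifng lay above the pool on all 30 arrays (0.01 to 1.15), Cxcl10 likewise, Bst2 below on the 17 that measured it (-1.65 to -0.63) and Trex1 below on 27 of 27. All arrays share the pool and the dye order, so a level of the sample and a level of the pool or dye cannot be told apart for genes that never cross 0.

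**Figure D4:**
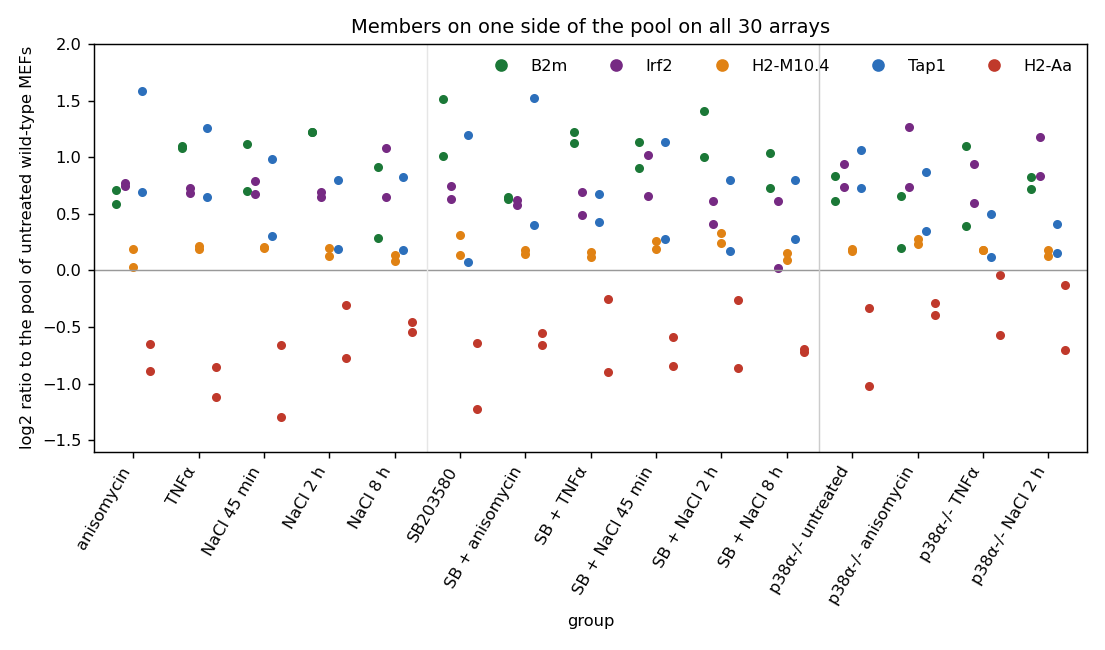
Log2 ratio of sample to pool (y axis) on all 30 arrays, with 1 point per array in each of the 15 groups (x axis), for the members that stayed on 1 side of the pool. B2m, Irf2, Tap1 and H2-M10.4 stay above 0 and H2-Aa stays below 0 in treated, inhibitor-treated and p38α-/- samples alike.

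Of the 15 groups, 11 wild type groups had their first arrays in 1 scan batch and their second in another, and some members followed these numbers. Mx1, an antiviral GTPase, lay between 0.68 and 1.75 on the first wild type arrays and between -0.20 and 0.40 on the second, with no overlap. Its values rest almost wholly on probe A_52_P614259, well above background in Cy5 on 20 of 30 arrays and on 1 of 2 with NaCl for 45 min. The other Mx1 probe, A_52_P446431, was marked as an outlier on 28 arrays and had a median of -0.26 with those spots kept. Tap1 lay between 0.28 and 1.58 on the first and between 0.07 and 0.80 on the second. Only with the replicate number as a block was Mx1 called with NaCl, at 0.76 after 45 min (adjusted p = 0.0244, limma), 0.88 after 2 h (adjusted p = 0.0137) and 0.73 after 8 h (adjusted p = 0.022).

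Probes of the same gene could differ. Of the 137 probes of the 95 members, 106 were well above background in both channels on all 30 arrays. In the 32 members with several probes the median distance between the lowest and the highest probe of an array was over 1 on the log2 scale for 6, namely H2-Q10 (2.46), Irf1 (1.29), H2-Aa (1.12), H2-Q1 (1.11), H2-Bl (1.10) and Oas1h (1.01). The probes of B2m differed by 0.029. In all, 37 of the 95 members were called in at least 1 comparison.

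**Figure D5:**
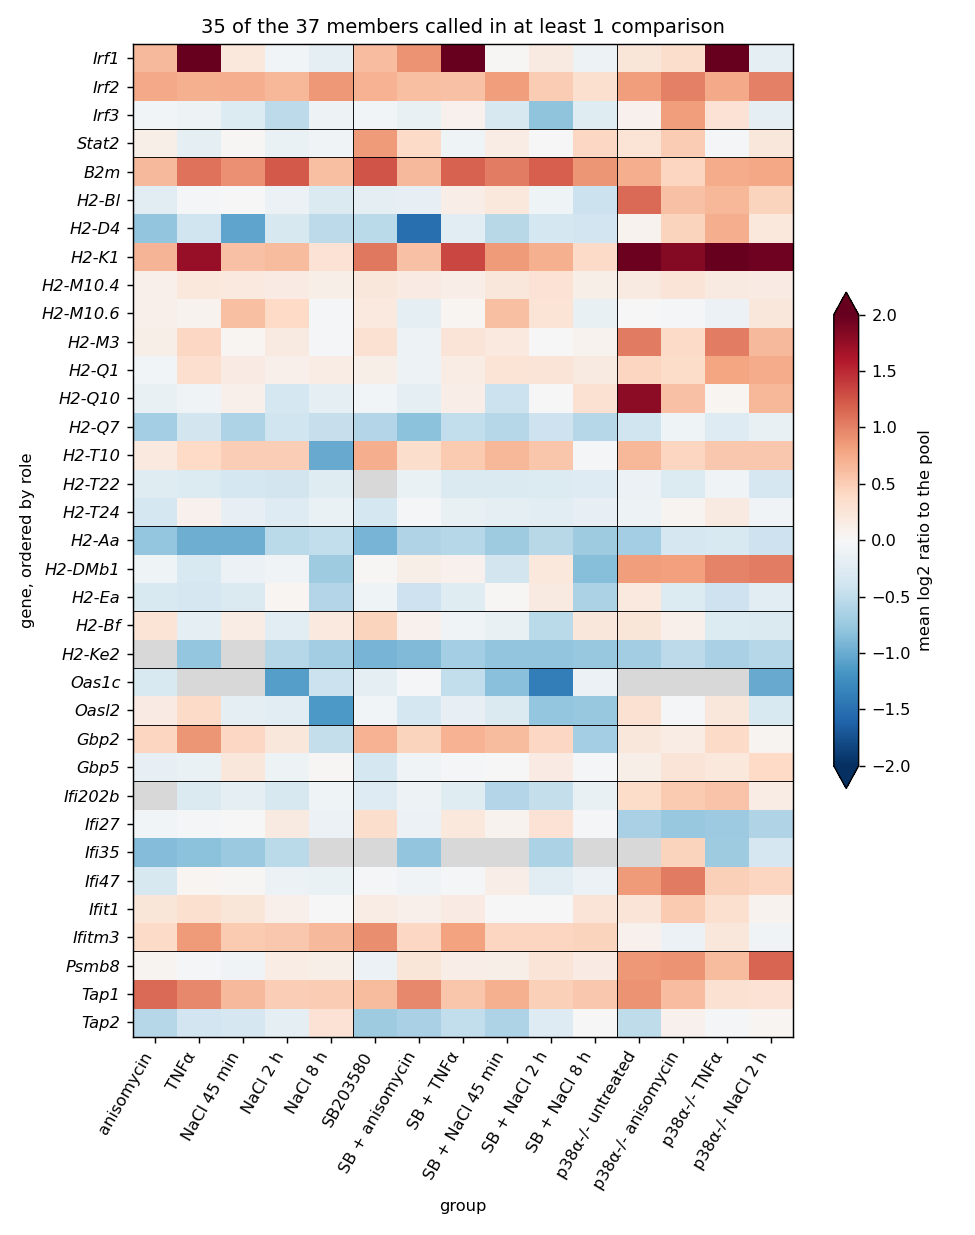
Mean log2 ratio of sample to pool (colour, on a scale centred at 0) for 35 of the 37 members called at least once (rows, ordered by role) in the 15 groups (columns), with 2 arrays per group and grey where no array measured the gene. Group means run from -1.51 to 4.50, the highest being Irf1 with TNFα in wild type MEFs, where 1 array measured it. The lowest is H2-D4 with SB203580 and anisomycin, also from 1 array, where its probe was not well above background in Cy5.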

How the data were processed

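RNA of MEFs was measured on 30 2-colour Agilent 44K mouse arrays after 2 rounds of amplification. Spot intensities were extracted by the authors with Feature Extraction, version 8.1.1.1 per the file headers and 9.1 per the labels, with spatial detrending, a dye normalization and a surrogate for dim signals. The deposited log10 ratios set processed Cy5 over processed Cy3 intensity, so positive values are higher in the sample. The authors also deposited a series matrix whose values follow the log2 ratios of the arrays (r 0.785 to 0.952, slope 0.859 to 0.963). Its array medians ran from -0.06 to 0.03, and its centring is not given in the sources used here.

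Log10 ratios were turned into log2 ratios, and control spots and outlier spots were left out. Means were taken over the spots of each probe and then over the probes of each gene name in the array design, which gave 21689 genes. Older names among the members are Gbp1 (now Gbp2b), Gbp4 (Gbp3), H2-Bf (Cfb), H2-Ke2 (Pfdn6), Ifi1 (Irgm1), Ifi27 (Ifi27l2a) and Isgf3g (Irf9). RefSeq held 82 of the 95 members by accession and 13 by symbol. A linear model with 1 mean for each of the 15 groups was fitted to all 30 arrays (limma 3.58.1, R 4.3.3), with moderated variances and the Benjamini-Hochberg adjustment over all genes tested. Its 15 residual degrees of freedom are fewer where spots are missing. A group or a difference of 2 groups was tested where all its arrays measured the gene, and an averaged comparison where each group had at least 1 array. The 2 arrays of a group come from independent experiments per the study's methods, and their number limits the precision. On simulated data, the TNFα comparison recovered 79.5% of changes of 1 and 98.5% of changes of 2 on the log2 scale. The simulated errors were normal and independent between arrays, with no scan batch, pairing or pool offset. These shares hold for such errors only. Tables and figures were made with Python 3.11.15, pandas 2.3.3, numpy 2.4.6 and matplotlib 3.10.9.

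The members, the gene lists and the comparisons were chosen with earlier results of these data known. Genes were named if they were Irf1, Irf2, Irf3, Irf7, Stat2, B2m, Tap1, Tap2, Psmb8, Psmb9 or Psmb10, if they were among the 10 largest called changes of a comparison in either direction, if they were called in at least 3 comparisons, or if they were called pathway genes. Single probes, Mx1, H2-D1, Ifnb1 and the genes with the largest distance between probes were named after their values were seen. The values of 2 members are not reported here.

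For the pairing by replicate number, the difference between the 2 arrays of each group was correlated between groups. It was over 0.1 in all 55 wild type pairs (0.133 to 0.645) and all 6 p38α-/- pairs (0.151 to 0.447). Among pairs of mixed genotype it was over 0.1 in 6 of 44. The numbers thus go with shared differences within a genotype, as read from the data and not from the labels. Within each genotype the 2 numbers were scanned in different batches, so a pairing of samples and the scan batch cannot be told apart. Alternatives were outlier spots kept, normexp with an offset of 50 and loess, the series matrix values, 1 probe per gene (the brightest), probes well above background, a replicate block, the scan batch as a random block, a 2.5-fold rule and each array left out. The scan batch as a fixed block, single probes, the comparison of TNFα with the other 45 min stresses, that of 8 h with 2 h over both inhibitor states, and the differences of the anisomycin and NaCl responses were chosen after seeing the data.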

Additional observations from a re-analysis of the deposited data

How the results depend on the processing

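Counts of called members are given first as reported. Except for single probes, the share of all genes called under the other settings is not given here. A higher count is therefore not read as more responses of the members. Keeping spots marked as outliers raised the counts from 9 to 27 with TNFα, 7 to 26 with anisomycin, 5 to 20, 6 to 23 and 8 to 21 with NaCl for 45 min, 2 h and 8 h, 12 to 38 with SB203580 alone, 16 to 30 in untreated p38α-/- MEFs, 11 to 20 for p38α-/- against wild type, 0 to 1 for TNFα in p38α-/- MEFs, 0 to 8 for the difference of the TNFα response, 1 to 2 for NaCl at 8 h against 2 h, 0 to 1 for TNFα against anisomycin and 1 to 2 for TNFα against the other 45 min stresses. The series matrix gave, in the same order, 23, 24, 18, 24, 24, 38, 29, 23, 1, 6, 2, 1 and 3. Single probes gave a called probe in 17 members with TNFα, 11 with anisomycin, 12 with NaCl for 2 h and 19 with SB203580 alone. They gave 1 member for TNFα in p38α-/- MEFs and 2 for TNFα against the other 45 min stresses. With TNFα 19 of 77 member probes were called, where 3483 of all 26338 probes tested were. For anisomycin the counts were 12 of 85 against 3551 of 26574, and for NaCl at 2 h 13 of 108 against 4066 of 32624. With SB203580 alone they were 21 of 74 against 7610 of 25712. For TNFα in p38α-/- MEFs they were 1 of 77 against 20 of 25723. TNFα against the other 45 min stresses gave 2 of 96 against 78 of 31081.

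The 2.5-fold rule left 1 member with TNFα, 0 with anisomycin, each NaCl time, SB203580 alone, p38α-/- against wild type and 8 h against 2 h over both inhibitor states, 2 in untreated p38α-/- MEFs and for TNFα in p38α-/- MEFs, and 3 for the difference of the TNFα response. Normexp with loess gave 3 for that difference, 2 for TNFα against the other 45 min stresses and 4 for 8 h against 2 h over both inhibitor states. Probes well above background gave 2 for TNFα against the other 45 min stresses, and the scan batch as a random block 2 there and 3 for NaCl at 8 h against 2 h.

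With the replicate number as a block, 10 members were called with NaCl for 45 min, 11 for 2 h, 6 for the difference of the TNFα response, 4 for NaCl at 8 h against 2 h and 2 for TNFα against the other 45 min stresses, and none of the 83 called values lost its call.

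With 1 array left out, the counts ran from 2 to 3 with TNFα, 0 to 2 with anisomycin, 0 to 2, 1 to 4 and 2 to 7 with NaCl for 45 min, 2 h and 8 h, 2 to 20 with SB203580 alone, 3 to 13 in untreated p38α-/- MEFs, 9 to 12 for p38α-/- against wild type, 0 to 1 for TNFα in p38α-/- MEFs, 1 to 1 for NaCl at 8 h against 2 h, 0 to 2 for TNFα against the other 45 min stresses, 3 to 6 for 8 h against 2 h over both inhibitor states, and stayed at 0 for SB203580 over all stresses, for TNFα against anisomycin and for the difference of the TNFα response. Of 324 recomputed values of called members, 216 kept their call, 108 lost it and 0 reversed. These fits take the remaining array of a group to be as variable as arrays elsewhere. The 1 value that reversed under any setting was H2-Q10 in untreated p38α-/- MEFs, at -0.11 with outlier spots kept. Among the called values of single members, the call was lost by 7 with the brightest probe, 12 with normexp and loess, 4 with outlier spots kept, 1 with probes well above background, 7 with the scan batch as a random block and 5 in the series matrix. The causes of these shifts were not tested.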
